A study of Mus musculus with 40 samples.

Results

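The nuclear genes for the respiratory chain and ATP synthase were followed in 40 mammary gland RNA libraries from ovariectomised Balb/cJ mice, with 5 mice in each of 8 groups. Genes were chosen by symbol alone: Nduf with a, b, c, s or v and then a digit for complex I, Sdha to Sdhd for complex II, Uqcr for complex III, Cox4 to Cox8 for complex IV and Atp5 for complex V. Of 88 matching symbols, 4 pseudogenes and the brown fat and muscle isoforms Cox7a1 and Cox8b were left out by name. At least 10 counts over all libraries were required, which left out Cox8c with 1 count and kept Cox7b2 with 47 and Cox6a2 with 115. The 81 members, of 47729 genes in the tables, comprised 35 for complex I, 4 for complex II, 8 for complex III, 15 for complex IV, 15 for complex V and 4 associated genes that are not standing subunits (Ndufa4l2, Cox7a2l, Atp5s and Atp5sl). Ndufa4 was counted with complex IV, where its protein resides. Cyc1 and Ndufab1 also encode subunits but do not match these patterns, and they are given with the electron carriers below.

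All mice were ovariectomised at 21 days of age, recovered for 7 days and ate a purified diet or a version of it. Estrogen groups drank water with 200 nM estrogen and were taken at 60 h or 84 h. CLA groups ate the diet with 2.7% of fat as conjugated linoleic acid (CLA), a mixture of fatty acid isomers, and were taken at 108 h or 132 h. Each had its own control group on the plain diet at the same hour, so that agent and time differ together between estrogen and CLA. The sample was a piece of the fourth inguinal gland near the teat with the lymph node cut out, and cell types were not separated. Mature adipocyte markers summed to 38311 to 53705 CPM (counts scaled to a common library size) in the 20 control libraries, and the 12 luminal epithelial markers to 13.7 to 219 CPM. Counts per library ran between 18183713 and 40026800, and members took 1.04% to 1.95% of them.

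The respiratory chain moves electrons from NADH, through complex I, and from succinate, through complex II, to coenzyme Q and complex III, then by cytochrome c to complex IV, which reduces oxygen. Complexes I, III and IV pump protons across the inner mitochondrial membrane, and complex V lets them back to make ATP. Most subunits are encoded in the nucleus and a small core set in mitochondrial DNA, and in fat the chain is most abundant in brown adipocytes, where uncoupling protein turns the proton gradient into heat.

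Promoters of 5 members that carry the results below are shown as the 250 bases before and 50 after the annotated start, taken from RefSeq on GRCm38.p6. They were chosen after the values were seen: Sdha and Ndufv1 for a strong decline under CLA, Uqcrc1 and Cox6a1 for complexes III and IV, and Atp5g1 as the member that was higher. Capitals mark matches, on either strand, to the letters GCGCA, any base, then GCGC (nuclear respiratory factor 1, NRF1), CCGGAAG (ETS and GABP), AAGATGGCG (YY1), TCAAGGTCA (estrogen-related receptor, ERR) or GGGCGG (GC box, bound by SP1). Sdha lies at chr13:74350191-74350490 on the minus strand and holds 3 NRF1 matches. Uqcrc1 lies at chr9:108936398-108936697 on the plus strand with 2 NRF1 matches. Cox6a1 lies at chr5:115348909-115349208 on the minus strand with 2 NRF1 matches, 1 ETS match and 2 GC boxes. Ndufv1 at chr19:4012706-4013005 and Atp5g1 at chr11:96075582-96075881, both on the minus strand, hold none of the 5.
Sdha: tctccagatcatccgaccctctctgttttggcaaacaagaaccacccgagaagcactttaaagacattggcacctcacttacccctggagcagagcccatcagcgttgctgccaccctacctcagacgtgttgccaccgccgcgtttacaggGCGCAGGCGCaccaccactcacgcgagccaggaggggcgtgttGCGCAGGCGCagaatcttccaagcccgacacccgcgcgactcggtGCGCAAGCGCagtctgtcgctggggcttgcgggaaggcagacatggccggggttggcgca
Uqcrc1: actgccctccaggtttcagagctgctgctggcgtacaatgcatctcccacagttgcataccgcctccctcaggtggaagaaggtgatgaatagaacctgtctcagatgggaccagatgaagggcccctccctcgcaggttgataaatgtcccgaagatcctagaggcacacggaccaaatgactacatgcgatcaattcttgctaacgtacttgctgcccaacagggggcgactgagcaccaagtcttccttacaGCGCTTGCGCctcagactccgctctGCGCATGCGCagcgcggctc
Cox6a1: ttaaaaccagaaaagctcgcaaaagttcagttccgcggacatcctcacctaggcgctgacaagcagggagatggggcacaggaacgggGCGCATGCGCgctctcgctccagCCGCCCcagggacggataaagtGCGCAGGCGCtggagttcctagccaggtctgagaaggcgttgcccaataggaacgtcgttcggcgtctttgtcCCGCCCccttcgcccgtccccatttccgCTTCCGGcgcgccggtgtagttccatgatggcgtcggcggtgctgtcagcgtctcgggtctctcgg
Ndufv1: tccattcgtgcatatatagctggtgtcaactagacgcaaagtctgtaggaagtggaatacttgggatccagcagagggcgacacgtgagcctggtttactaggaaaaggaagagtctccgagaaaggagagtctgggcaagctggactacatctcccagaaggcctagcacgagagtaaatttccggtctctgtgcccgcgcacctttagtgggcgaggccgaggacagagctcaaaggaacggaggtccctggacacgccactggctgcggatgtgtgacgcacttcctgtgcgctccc
Atp5g1: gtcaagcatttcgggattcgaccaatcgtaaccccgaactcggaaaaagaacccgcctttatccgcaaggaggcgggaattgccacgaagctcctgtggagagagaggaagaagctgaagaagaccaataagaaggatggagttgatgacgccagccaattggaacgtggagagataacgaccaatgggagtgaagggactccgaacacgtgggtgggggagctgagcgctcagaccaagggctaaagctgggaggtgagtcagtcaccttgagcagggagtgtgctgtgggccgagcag

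Of the 81 members, 67 had a promoter in the RefSeq table. The NRF1 letters were in 25.4% of these, against 9.72% of promoters of the genes tested and 5.19% of all promoters. YY1 letters were in 11.9% of members' promoters, against 2.89% of tested genes and 1.64% of all. ETS letters were in 23.9%, against 17.0% and 9.93%, and ERR letters in 2.99%, against 0.301% and 0.466%. The GC box was in 41.8% of members' promoters and in 63.4% of tested genes and 38.2% of all. These matches describe letters in a window of fixed length and were not tested as binding sites.

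Members spanned a wide range of expression per transcript length. By mean RPKM (the authors' reads scaled for gene length and library size) over the 40 libraries, Cox8a was highest at 529, then Cox6a1 at 467, both small subunits of cytochrome c oxidase. Atp5b and Atp5a1, the catalytic and partner subunits of the ATP synthase head, followed at 412 and 351 RPKM. In all, 32 members lay above 100 RPKM and 73 above 10 RPKM. Atp5l and Cox5a, both above 100 RPKM, have uncertain levels for the reason given with the c ring genes. The median member was at 64.1 RPKM for complex I, 126 for complex II, 116 for complex III, 133 for complex IV and 87.9 for complex V. Complex III was the most even, from 99.9 RPKM for Uqcrc1 to 193 for Uqcr11, while complex I ran from 7.02 for Ndufb2 to 254 for Ndufb9. The 6 lowest members were Cox7b2 at 0.00248 RPKM, Cox6a2 (the heart and skeletal muscle isoform) at 0.334, Atp5g1 at 1.33, Cox6b2 (the testis isoform) at 2.02, Atp5s at 3.86 and Cox4i2 at 4.88.

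**Figure D1:**
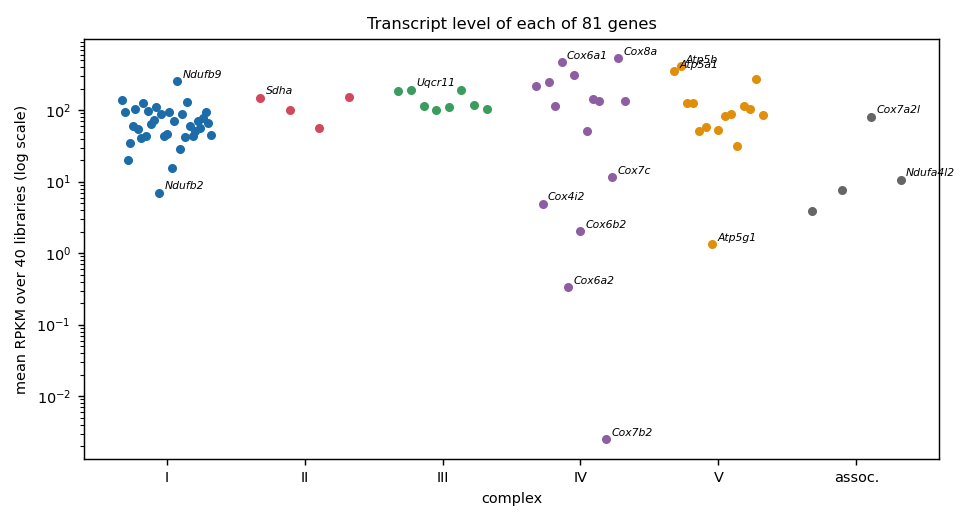
Mean RPKM over 40 libraries (log axis) of each member, by complex, 1 point a gene. Most subunits lie above 10 RPKM, and the low points in complexes IV and V are the isoforms Cox4i2, Cox6b2, Cox6a2, Cox7b2 and Atp5g1.

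Of the isoform pairs, the common gene had the higher RPKM in every group. Cox4i1 averaged 188 RPKM in CLA glands and 248 RPKM in control glands at 132 h, while its lung and hypoxia isoform Cox4i2 averaged 2.72 RPKM in CLA glands and 5.22 RPKM in controls. Ndufa4 averaged 121 RPKM in CLA glands and 141 RPKM in controls, and its paralog Ndufa4l2, a hypoxia-induced gene, 5.67 RPKM in CLA glands and 12.2 RPKM in controls. Cox6a2 and Cox7b2 did not pass the filter on low counts and were not tested. Cox6a2 reached 26 and 20 counts in 2 control libraries, replicate 2 at 132 h and replicate 5 at 84 h, which also held the 2 highest sums of skeletal muscle markers (1226 and 2112 CPM). Cox7b2 had at most 6 counts in any library.

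**Figure D2:**
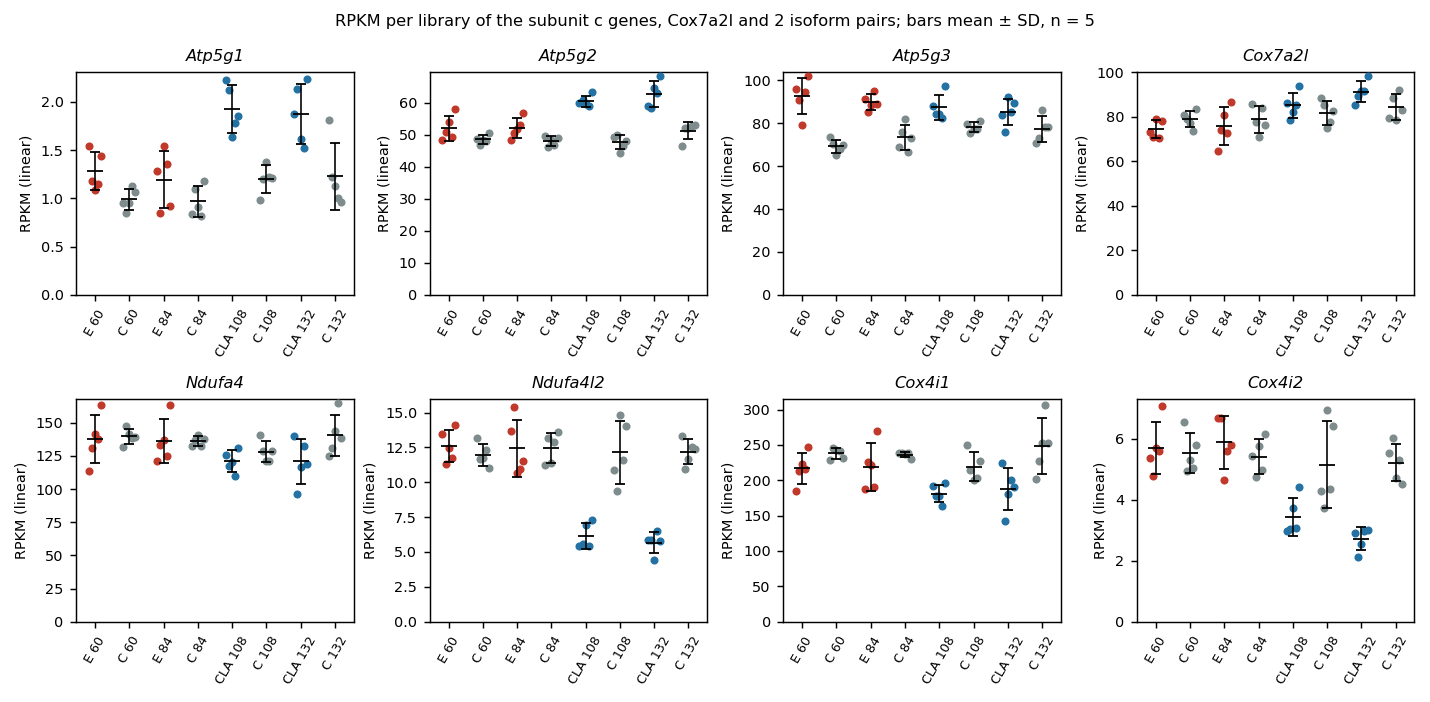
RPKM in each library (linear axes from 0) for the c ring genes, Cox7a2l and the pairs Ndufa4 with Ndufa4l2 and Cox4i1 with Cox4i2, in estrogen (E), CLA and control (C) glands at the hours given, with mean ± SD. Cox4i2 and Ndufa4l2 stand lower in CLA glands than in controls, at levels well under those of Cox4i1 and Ndufa4.

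The estrogen groups were set against controls of the same hour. All 10 estrogen libraries fall in 1 run of the number in the sample titles and all CLA and control libraries in 3 other runs, so an effect of estrogen cannot be told apart from that of the run, and the labels do not explain the number. Of 79 members tested at 60 h, Atp5g3 rose and none fell at an adjusted p of 0.05 (edgeR's quasi-likelihood test with Benjamini-Hochberg adjustment over all 17248 genes, with 6.49% of genes called, 4.07% higher and 2.42% lower). Atp5g3, 1 of 3 genes for the membrane c ring of ATP synthase, had 270.2, 282, 229, 297 and 302 CPM in estrogen glands, against 214, 209, 198, 211 and 208 CPM in control glands. All 5 estrogen values lay above all 5 control values, with 0.40 ± 0.06 as the log2 fold change and its SE (adjusted p = 0.00256). This was the only member whose groups did not overlap on the higher side (3.83% of all genes), and Atp5l, another membrane subunit, was the only one on the lower side (2.61% of all genes), at -0.34 ± 0.10 (adjusted p = 0.0556), although its counts are uncertain for the reason given with the c ring genes. Over the members the median log2 fold change was -0.10, against -0.002 over all genes, and 66 of 79 were negative. With 1 library left out at a time it ran between -0.15, without estrogen replicate 5, and -0.04, without estrogen replicate 1. In whole tissue, fewer cells of a type and less RNA per cell cannot be told apart, here and below.

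Individual catalytic genes at 60 h lay on the negative side without passing the test. Sdha, which oxidises succinate, had a log2 fold change of -0.27 ± 0.09 (adjusted p = 0.0867) and Ndufs1, the largest iron-sulfur subunit of complex I, -0.29 ± 0.10 (adjusted p = 0.0899). Sdha had 649.5, 931, 834, 879.5 and 799 CPM in estrogen glands, against 899.7, 931, 1047, 1048 and 984 CPM in control glands. The lowest of these was estrogen replicate 1, which was also the lowest estrogen library for Ndufv1, Uqcrc1 and Cox6a1. Its brown and beige fat markers summed to 1243 CPM, against 1846 to 2448 CPM in the other 4 estrogen libraries and 2013 to 2526 CPM in the 5 controls, and the part of these cells in the result was not tested. DESeq2 called 4 members at 60 h, 2 higher and 2 lower, and upper-quartile scaling called 2, both higher. Without control replicate 1, or without estrogen replicate 2 or 4, the count by edgeR was 2.

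At 84 h of estrogen no member was called by edgeR (5.42% of genes called, 1.97% lower and 3.45% higher). At an unadjusted p under 0.05 there were 7 members (21.4% of all genes), DESeq2 called 0, and limma on log2(RPKM + 0.1) called 1, again Atp5g3. Atp5g3 had 265, 251, 254, 279 and 274 CPM in estrogen glands, against 209, 233, 257, 196 and 219.9 CPM in control glands. The groups overlapped, with a log2 fold change of 0.23 ± 0.08 (adjusted p = 0.115), and without control replicate 3 edgeR called 1 member. The median member stood at -0.09, against -0.01 over all genes, with 72 of 79 negative. Leaving out 1 library gave medians between -0.16, without estrogen replicate 5, and -0.05, without estrogen replicate 1. The change in estrogen effect between 84 h and 60 h was called for 0 members by edgeR and by DESeq2 (0.00560% of genes called, lower), and 0 members had an unadjusted p under 0.05 (6.50% of all genes). Markers of luminal epithelium rose beside these values, 10 of 12 at 60 h and 7 of 12 at 84 h. They summed to 174 to 458 CPM in estrogen glands against 13.7 to 120 CPM in controls at 60 h, and to 305 to 528 CPM in estrogen glands against 18.6 to 173 CPM in controls at 84 h, and their part in the members' values was not tested. Without the libraries of high skin signal the median member was -0.16 at 60 h and -0.25 at 84 h, with 1 and 0 members called. Over all genes the medians were -0.005 and -0.01. At 84 h this leaves only estrogen replicates 1 and 4. They had the lowest mean log2 CPM over the members in their group, 6.57 and 6.64, against 6.71 to 7.02 in replicates 2, 3 and 5.

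Most members were lower in CLA glands than in their controls. At 108 h, 44 of 79 members fell and Atp5g1 rose, where 47.9% of all genes were called, 23.0% lower and 24.9% higher. At 132 h, 60 fell and Atp5g1 rose, where 56.0% of all genes were called, 29.0% lower and 27.0% higher. The median log2 fold change was -0.22 at 108 h and -0.43 at 132 h, against -0.01 and -0.03 over all genes, and 73 and 76 of 79 members were negative. Members took 1.29% ± 0.0811 of counts in CLA glands and 1.54% ± 0.10 in control glands at 108 h, and 1.28% ± 0.185 in CLA glands and 1.72% ± 0.175 in control glands at 132 h (SD, n = 5 each). The groups did not overlap, with CLA lower, for 39 members at 108 h (14.1% of all genes) and for 20 at 132 h (15.8% of all genes). Libraries with a high skin signal included control replicates 1, 2 and 5 at 108 h and control replicates 1, 2 and 3 at 132 h. Without all such libraries, which leaves 2 controls at each hour, 19 members were lower and 1 higher at 108 h, with a median of -0.15, and 68 lower and 1 higher at 132 h, with a median of -0.58. The median over all genes in these fits was 0.004 at 108 h and 0.03 at 132 h. Ndufs3, Uqcr11, Cox4i1 and Cox6a1 were among those no longer called at 108 h without them. On log2(RPKM + 0.1), limma called 31 members lower and 3 higher at 108 h, with a median of -0.15, and 42 lower and 2 higher at 132 h, with a median of -0.28. Over all genes its medians were 0.07 and 0.13. The shares of all genes called are not given for these other fits, so whether a changed count is particular to the members cannot be read from it.

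**Figure D3:**
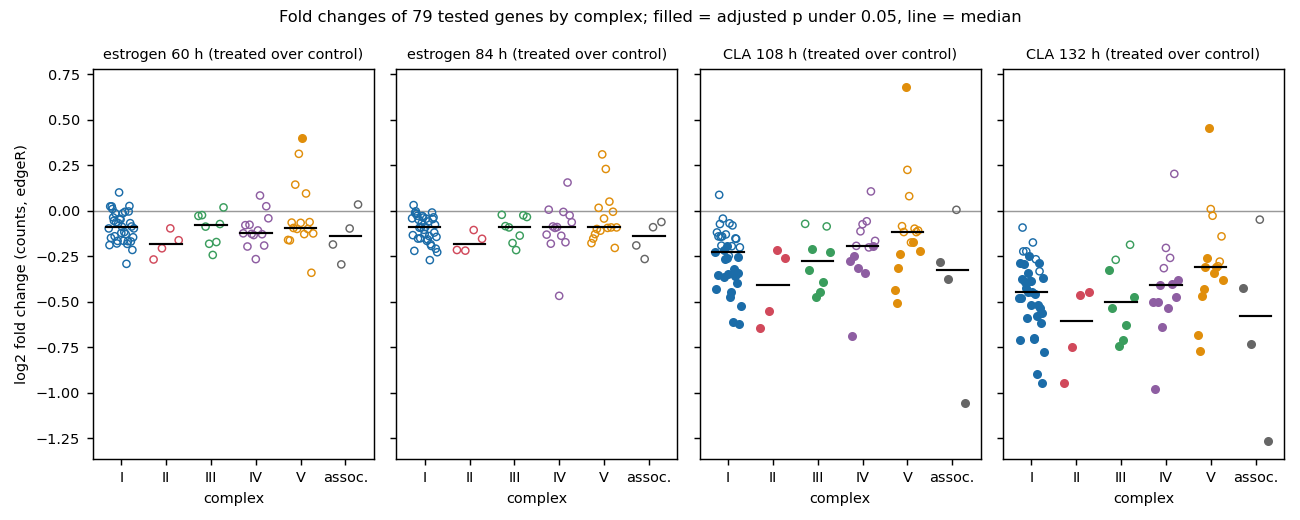
Log2 fold change of each member by complex in the 4 comparisons, each against its own control, with filled points for an adjusted p under 0.05 and a bar at the median of each complex. Estrogen points lie around and just below 0, CLA points lie mostly below it at 108 h and further below at 132 h, and Atp5g1 stands above 0 in complex V.

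In complex I, which takes electrons from NADH, 19 of 35 subunits fell at 108 h and 29 of 35 at 132 h. The 7 core subunits, most of which carry the flavin or iron-sulfur clusters, had medians of -0.34 and -0.58, with 6 and 7 lower. The 28 accessory subunits had medians of -0.19 and -0.39, with 13 and 22 lower. Ndufv1, the NADH-binding flavoprotein, had 213, 214, 226, 183 and 207 CPM in CLA glands, against 371, 304, 299, 308 and 326 CPM in control glands at 108 h. At 132 h it had 262, 158, 171, 213 and 204 CPM in CLA glands, against 323, 341, 389, 474 and 385 CPM in control glands. CLA values lay below all control values at both hours, with log2 fold changes of -0.62 ± 0.09 and -0.94 ± 0.14 (adjusted p = 8.65e-06 and 1.05e-05). Ndufs1 was alike, at -0.61 ± 0.10 and -0.90 ± 0.11 (adjusted p = 6.60e-05 and 1.53e-06), with groups apart at both hours. Ndufs3, a core subunit of the arm toward coenzyme Q, fell by 0.36 at 108 h and by 0.52 at 132 h on the log2 scale. Ndufv3, a small accessory subunit beside the flavoprotein, had -0.52 and -0.78. Ndufb9, the complex I member of highest RPKM, had -0.45 and -0.70, and Ndufa1, needed for assembly of the membrane arm, -0.23 and -0.48. At 108 h Ndufa1 was not called by limma on RPKM, in the fit of all 40 libraries, without libraries of high skin or muscle signal, without control replicate 1 or without CLA replicate 2, 3 or 4 (highest adjusted p = 0.348). The 6 accessory members called at neither hour were Ndufa2, Ndufa3, Ndufa8, Ndufb7, Ndufc2 and Ndufs5. Of these Ndufa2 was -0.09 at 132 h with a 95% interval of -0.32 to 0.13.

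All 4 subunits of complex II, which links the tricarboxylic acid cycle to the chain, fell at both hours. Sdha, the flavoprotein with the catalytic site, had 503, 472, 572, 470.4 and 471 CPM in CLA glands, against 892, 653, 799, 779 and 779.9 CPM in control glands at 108 h. The 132 h values were 583, 413, 412, 493 and 482 CPM in CLA glands, against 807, 781, 919, 1023 and 993 CPM in control glands. The groups were apart at both hours, and CLA replicate 1 was the highest CLA library at 132 h. On the log2 scale CLA over control was -0.64 ± 0.09 and -0.95 ± 0.11 (adjusted p = 1.31e-05 and 5.04e-07). Sdhb, the iron-sulfur subunit, fell by 0.55 and 0.75 on the log2 scale. The membrane anchors Sdhc and Sdhd had smaller values, -0.21 and -0.46 for Sdhc and -0.26 and -0.45 for Sdhd, and the difference between catalytic and anchor genes was not tested. At 108 h neither anchor was called by limma on RPKM or without libraries of high skin or muscle signal (highest adjusted p = 0.170 for Sdhc and 0.167 for Sdhd). Sdhc also lost its call in the fit of all 40 libraries and without control replicate 1 or CLA replicate 4, and Sdhd without control replicate 1 or CLA replicate 2.

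In complex III, which passes electrons from coenzyme Q to cytochrome c, 6 of 8 members fell at each hour. Uqcrc1, a large core protein, had 377, 391, 431, 325 and 339 CPM in CLA glands, against 600.0, 485, 497, 501 and 516 CPM in control glands at 108 h. At 132 h it had 507, 299, 314, 384 and 408 CPM in CLA glands, against 519, 541, 652, 771 and 667 CPM in control glands. The groups were apart at both hours, narrowly at 132 h between CLA replicate 1 and the lowest control. CLA over control was, in log2 fold change, -0.48 ± 0.10 and -0.74 ± 0.15 (adjusted p = 0.000398 and 0.000253). The other core protein, Uqcrc2, and the Rieske iron-sulfur protein, Uqcrfs1, had -0.71 and -0.63 at 132 h. Uqcr11, a small subunit and the complex III gene of highest RPKM, had -0.32 and -0.53. Uqcrh, the hinge protein near cytochrome c, was called at neither hour, at -0.09 and -0.19.

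In complex IV, the terminal oxidase, 6 of 13 tested members fell at 108 h and 9 at 132 h, with medians of -0.19 and -0.41. Cox6a1, a regulatory subunit, had 337, 336, 342, 281 and 326 CPM in CLA glands, against 457, 389, 384, 387 and 407 CPM in control glands at 108 h. By 132 h there were 402, 246, 287, 341 and 341 CPM in CLA glands, against 389, 431, 531, 623 and 503 CPM in control glands. The groups were apart at 108 h, and at 132 h CLA replicate 1 lay just above control replicate 1. On the log2 scale CLA over control was -0.31 ± 0.08 and -0.64 ± 0.14 (adjusted p = 0.00229 and 0.000913). Cox4i1, which begins assembly with the mitochondrially encoded core, fell by 0.27 and 0.50 on the log2 scale, and Cox8a by 0.19 and 0.47. Cox5a fell by 0.25 and 0.50, and Cox5b had -0.19 (adjusted p = 0.0803) at 108 h and fell by 0.41 at 132 h. At 108 h Cox5a lost its call in 8 other settings and when control replicate 1 or 5 or CLA replicate 1, 2 or 4 was left out (highest adjusted p = 0.334). Cox8a lost it in 8 other settings and without control replicate 1, 4 or 5 or CLA replicate 1, 3 or 4 (highest adjusted p = 0.243). Ndufa4 had -0.17 (adjusted p = 0.0924) and fell by 0.38 at 132 h, a call not made by limma on RPKM or with title runs as a term. Cox5b was not called at 132 h by limma with no filter, with title runs as a term or without control replicate 4. Cox6b1, Cox6b2, Cox7a2 and Cox7c were called at neither hour, Cox7c with positive values of 0.11 and 0.20 by counts. By RPKM Cox7c had -0.14 at each hour (adjusted p = 0.567 and 0.472), and its counts per unit of RPKM correspond to 32.1% of its exon length, so its direction is uncertain. Cox6b1 and Cox7a2 were called lower at 132 h in 8 other settings each.

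The low-level isoform Cox4i2 also fell at both hours. It had 3.88, 3.87, 5.00, 3.97 and 5.32 CPM in CLA glands, against 6.11, 4.83, 9.63, 6.67 and 8.48 CPM in control glands at 108 h. At 132 h it had 4.06, 3.17, 3.19, 4.17 and 4.20 CPM in CLA glands, against 7.13, 7.75, 6.83, 7.42 and 7.31 CPM in control glands. The groups overlapped at 108 h through control replicate 2 and were apart at 132 h. CLA over control was, in log2 fold change, -0.69 ± 0.16 and -0.98 ± 0.12 (adjusted p = 0.00113 and 1.83e-06), and the difference from Cox4i1 was not tested.

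Values of complex V are given by its parts, and differences between the parts were not tested. All 5 genes of the F1 head fell at 132 h and 4 of 5 at 108 h, with medians of -0.47 and -0.32. Atp5b, the catalytic beta subunit, had 1592, 1564, 1771, 1412 and 1428 CPM in CLA glands, against 2464, 1959, 2215, 2202 and 2218 CPM in control glands at 108 h. For 132 h the values were 1819, 1299.9, 1322, 1563 and 1572 CPM in CLA glands, against 2197, 2280.1, 2561, 3004 and 2663 CPM in control glands. The groups were apart at both hours. On the log2 scale CLA over control was -0.51 ± 0.08 and -0.77 ± 0.12 (adjusted p = 5.34e-05 and 1.33e-05). Atp5a1, the alpha subunit, fell by 0.43 and 0.68 on the log2 scale, and Atp5c1, the rotating central shaft, by 0.32 and 0.47. Of 4 stalk genes, 2 fell at 108 h and 4 at 132 h, among them Atp5j. Limma on RPKM called Atp5j at neither hour (highest adjusted p = 0.125 at 132 h). At 108 h Atp5j also lost its call without libraries of high skin or muscle signal (highest adjusted p = 0.398 over these and the limma fits). The membrane subunits Atp5j2, Atp5k and Atp5l were called at neither hour, with medians of -0.11 and -0.28.

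The 3 c ring genes encode the same mature protein from different precursors, and none was called lower. Atp5g1, the least expressed of them, had 6.16, 7.00, 5.89, 5.89 and 6.01 CPM in CLA glands, against 3.65, 3.57, 4.03, 4.00 and 4.10 CPM in control glands at 108 h. At 132 h it had 5.74, 6.30, 4.98, 4.91 and 7.16 CPM in CLA glands, against 5.48, 3.84, 3.72, 4.27 and 3.57 CPM in control glands. The groups were apart at 108 h, and at 132 h control replicate 1 lay above CLA replicates 3 and 4. CLA over control was, in log2 fold change, 0.68 ± 0.10 and 0.45 ± 0.14 (adjusted p = 1.15e-05 and 0.00863), and with a term for runs of the number in the sample titles Atp5g1 was no longer called at 132 h, at 0.40. Atp5g2 had 0.23 ± 0.10 and 0.01 ± 0.11 by counts (adjusted p = 0.0787 and 0.948), but limma on log2(RPKM + 0.1) called it higher at both hours, at 0.35 and 0.29. Atp5g3 had 0.08 and -0.03 by counts, and the RPKM test called it higher at 108 h, at 0.16. Counts and RPKM do not share 1 length for every gene: counts per unit of RPKM correspond to 9.28% of the exon length for Atp5g2, 0.597% for Atp5l, 21.9% for Ndufb4 and 26.1% for Cox5a, so the values of these 4 genes are uncertain, and the cause was not tested. They are the members under 30%, where the median member is at 126%. Other members also lie well under that median, among them Ndufs5 at 31.3%, Cox4i1 at 40.3% and Ndufs1 at 45.9%, and call for caution too. How reads matching more than 1 gene were counted is not given in the sources used here.

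**Figure D4:**
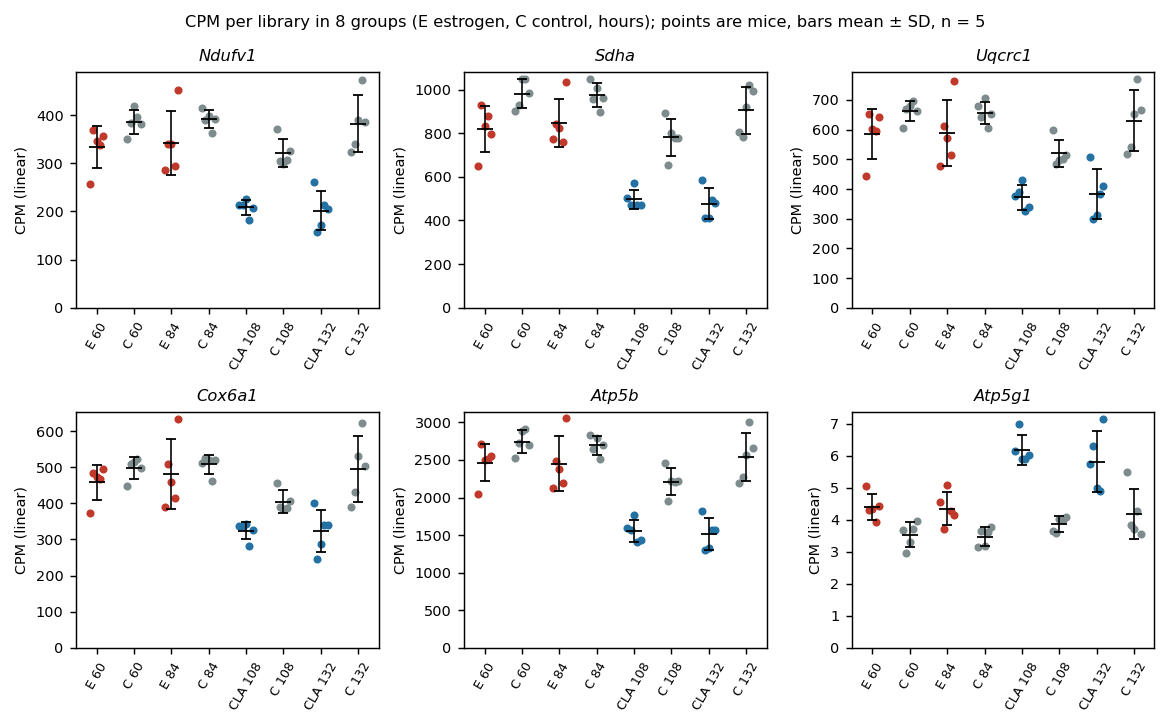
CPM in each library for leading members of the 5 complexes and for Atp5g1, CLA left of control at 108 h and 132 h and estrogen left of control at 60 h and 84 h, with mean ± SD. CLA libraries lie below their controls for Ndufv1, Sdha, Uqcrc1, Cox6a1 and Atp5b, apart from CLA replicate 1 for Cox6a1 at 132 h, and Atp5g1 lies higher.

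The associated genes moved unevenly. Ndufa4l2 had 6.51, 6.79, 8.45, 6.56 and 8.57 CPM in CLA glands, against 14.2, 11.3, 19.0, 14.8 and 17.7 CPM in control glands at 108 h. Libraries at 132 h gave 7.28, 6.94, 5.06, 7.58 and 7.16 CPM in CLA glands, against 17.0, 13.6, 15.7, 17.4 and 16.8 CPM in control glands. The groups were apart at both hours, and its log2 fold changes of -1.05 ± 0.12 and -1.26 ± 0.12 were the most negative of the 79 members (adjusted p = 5.50e-07 and 3.13e-08). Atp5s and Atp5sl, distant relatives of each other, fell at both hours and stood at -0.42 and -0.73 at 132 h. Cox7a2l, a relative of Cox7a2, was 0.01 and -0.05, with a 95% interval of -0.21 to 0.11 at 132 h. In RPKM it averaged 91.3 ± 4.79 in CLA glands and 84.2 ± 5.81 in control glands at 132 h (SD, n = 5 each).

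Calls at both hours of CLA were set side by side. Of the members lower at 108 h, 43 (97.7%) were also lower at 132 h, which is 71.7% of the 132 h list. Over all 16936 genes tested at both hours, 83.6% of the genes lower at 108 h were lower at 132 h, which is 68.6% of that list. Uqcrb alone was lower only at 108 h in these calls. Values were more negative at 132 h for 78 of 79 members, Cox7c being the exception by counts, and the log2 fold changes of both hours had a Pearson correlation of 0.967 over the 79 members, which share libraries within each hour. Mean log2 CPM over the 79 members was 6.41 ± 0.09 in CLA glands at 108 h and 6.40 ± 0.22 at 132 h. In their controls it was 6.65 ± 0.10 and 6.82 ± 0.19 (SD, n = 5 each). CLA glands were thus level between the hours, while controls were lower at 108 h than at 132 h. Controls at 60 h and 84 h had 6.84 ± 0.06 and 6.82 ± 0.05. The 108 h controls were thus the lowest control group, and those at 132 h were level with the earlier hours. The change in effect from 108 h to 132 h, tested itself in a fit of all 40 libraries, was called for 0 members by edgeR and 0 by DESeq2, with 3 members at an unadjusted p under 0.05 (12.4% of all genes) and a median of -0.19. That median was -0.28 without CLA replicate 1 at 132 h, -0.10 without CLA replicate 2 at 132 h and -0.11 without control replicate 4 at 132 h. It was -0.43 without libraries of high skin signal, -0.48 without those of high muscle signal and -0.52 without either. Within runs of the title number the median member at 108 h was -0.26 between 3 CLA and 2 control libraries and -0.23 between 2 CLA and 3 control libraries. At 132 h it was -0.26 between 3 CLA and 2 control libraries, -0.53 between 1 CLA and 2 control libraries and -0.38 between 1 CLA and 1 control library. In the run with 3 CLA and 2 control libraries, control replicates 1 and 2 were high in skin signal at both hours. At 132 h both were also high in muscle signal, as was CLA replicate 1. Other runs held control replicate 5 at 108 h and control replicate 3 at 132 h, also high in skin signal. These medians therefore do not separate run from tissue signal.

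**Figure D5:**
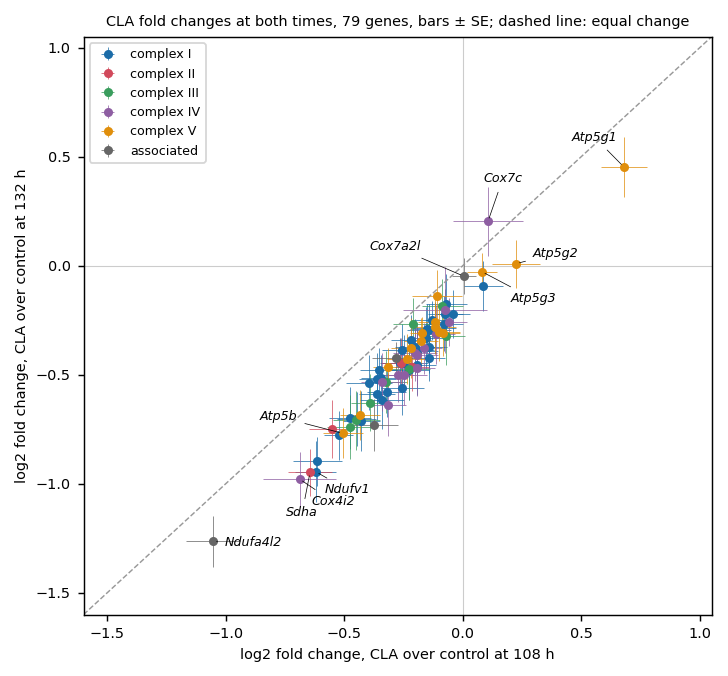
Log2 fold change of CLA over control at 132 h against that at 108 h, 1 point a member, coloured by complex, with bars for the SE and the line of equal values dashed. All points but Cox7c lie below the line, with Ndufa4l2 at the low end and Atp5g1 at the high end.

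Estrogen and CLA effects were set against each other within each table, where agent, hour and title run differ together and cannot be told apart. CLA at 108 h minus estrogen at 60 h was called for 11 members, 10 lower and Atp5g1 higher (32.1% of genes called, 14.9% lower and 17.2% higher). The higher call of Atp5g1 was not made in 7 of 11 other settings, among them RLE and upper-quartile scaling, DESeq2, no filter and without libraries of high skin or muscle signal, nor in 16 of 20 fits with 1 library left out. Smallest p-values belonged to Ndufa4l2 at -1.09 ± 0.16 (adjusted p = 5.95e-05), Ndufv3 at -0.43, Atp5j, a stalk subunit, at -0.27, Atp5g3 at -0.32 and Ndufv1 at -0.41. Atp5g3 was not lower under CLA at 108 h, at 0.08, and was 0.40 under estrogen at 60 h. Atp5j had -0.17 under CLA and 0.10 under estrogen. CLA at 132 h minus estrogen at 84 h was called lower for 25 and higher for 0 (38.0% of genes called, 18.9% lower and 19.1% higher), led by Ndufa4l2 at -1.20 ± 0.16 (adjusted p = 1.41e-05), Cox4i2 at -0.98, Sdha at -0.73, Ndufs1 at -0.63 and Atp5b at -0.62. Without the libraries of high skin signal 3 members were called in the early pair and 4 in the late pair, and without those of high muscle signal 2 and 40. The median difference in the early pair was -0.15, and it was -0.03 without high skin signal and -0.05 without high muscle signal. In the late pair it was -0.33, and -0.37 and -0.44 in the same 2 fits. The shares of all genes called in these fits are not given here. With 1 library left out at a time the counts were 5 to 30 in the early pair, the most without estrogen replicate 1 at 60 h, and 11 to 41 in the late pair, the most without CLA replicate 1 at 132 h.

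The controls of the 4 hours were compared with each other in the fit of all 40 libraries. Of 79 members, 2 differed, Ndufs1 (adjusted p = 0.0257) and Sdha (adjusted p = 0.0471), where 13.4% of genes were called. Ndufs1 averaged 205, 200.2, 154 and 183 CPM in controls at 60, 84, 108 and 132 h, and Sdha 982, 974, 781 and 905 CPM. The 108 h controls were the lowest group for both. Without the libraries of high skin signal 0 members were called by edgeR, and 0 also without control replicate 2 or 5 at 108 h, while 4 were called without control replicate 4 at 132 h. DESeq2 called 6.

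Other genes of the pathway were lower under CLA to differing degrees. Over all genes 23.0% were called lower and 24.9% higher at 108 h, and 29.0% lower and 27.0% higher at 132 h. All 16 genes listed for the tricarboxylic acid cycle and its supply fell at both hours, with medians of -0.59 and -0.81. The most negative was Pdha1, at -1.15 and -1.47, which feeds the cycle with acetyl units and is not itself a cycle enzyme. Of 17 genes for electron carriers and coenzyme Q synthesis, 13 fell and 1 rose at each hour, with Cyc1, the cytochrome of complex III, at -0.49 and -0.73 and Ndufab1, the acyl carrier in complex I, at -0.27 and -0.44. Of 45 tested assembly factors, 15 fell and 3 rose at 108 h and 24 fell and 2 rose at 132 h, with medians of -0.10 and -0.22. Coa3 and Coa4, both for complex IV, were higher at 0.41 and 0.48 at 132 h. The 13 genes of the mitochondrial genome had 10 lower at 108 h and 11 at 132 h, with medians of -0.56 and -0.73, read from polyadenylated RNA. Among 15 tested regulators of mitochondrial biogenesis, 3 fell and 2 rose at 108 h, smaller shares than over all genes. At 132 h 9 fell and 2 rose, and the medians were -0.15 and -0.25. Pprc1, a coactivator of NRF1, was higher at 0.52 and 0.46, and Gabpa lower at -0.30 and -0.25. Ppargc1a, which activates the chain's genes in brown fat, was not called, at -0.35 ± 0.19 and -0.42 ± 0.21.

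Markers of several cell types moved beside the members under CLA. Of 15 adipocyte markers 13 fell at each hour, and they summed to 25272 to 32982 CPM in CLA glands against 38919 to 50374 CPM in controls at 108 h, and to 21390 to 31636 CPM in CLA glands against 38311 to 53705 CPM in controls at 132 h. No marker of the adipocyte, macrophage or endothelial lists was at 0 in any of these groups. Of 14 macrophage markers 12 and 13 rose, summing to 2942 to 4453 CPM in CLA glands against 1047 to 1889 CPM in controls at 108 h, and to 3095 to 5733 CPM in CLA glands against 713 to 1253 CPM in controls at 132 h. Of 10 tested brown and beige fat markers 4 and 5 fell, summing to 968 to 1329 CPM in CLA glands against 1604 to 1834 CPM in controls at 108 h, and to 714 to 2098 CPM in CLA glands against 1328 to 2818 CPM in controls at 132 h, with Zic1 at 0 in both groups at 132 h. The top of that CLA range was replicate 1, the library highest among CLA glands at 132 h for Ndufv1, Sdha, Uqcrc1, Cox6a1 and Atp5b. Cox8b and Cox7a1, the isoforms left out of the members, are themselves among the brown and beige fat markers, so this list is not independent of the chain's genes. At 132 h Cox8b had 110 ± 39.7 CPM in CLA glands and 229 ± 55.4 CPM in controls (SD, n = 5 each). Cox7a1 had 45.9 ± 19.3 CPM in CLA glands and 73.1 ± 17.7 CPM in controls, with groups that overlapped (25.9 to 75.8 against 56.0 to 100.9 CPM). Of 9 endothelial markers 8 fell at each hour, summing to 918 to 1274 CPM in CLA glands against 1417 to 1857 CPM in controls at 108 h, and to 788 to 956 CPM in CLA glands against 1417 to 1926 CPM in controls at 132 h. The part of these cell types in the members' values was not tested.

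Skin and muscle signal also differed between libraries. In 11 libraries the skin and hair markers had a mean above 1.5 log2 CPM (1.59 to 6.76, against -1.87 to 1.10 in the other 29), namely 7 controls, 4 estrogen glands and no CLA gland. Skin and hair markers summed to 7.81 to 55.2 CPM in CLA glands against 18.6 to 2363 CPM in controls at 108 h, and to 9.27 to 37.7 CPM in CLA glands against 17.5 to 3213 CPM in controls at 132 h. Skeletal muscle markers were high in 10 libraries, namely 3 estrogen glands, CLA replicate 1 at 132 h and 6 controls. They summed to 75.2 to 115 CPM in CLA glands against 121 to 304 CPM in controls at 108 h, and to 67.1 to 139 CPM in CLA glands against 150.4 to 1226 CPM in controls at 132 h. Without all libraries high in either, 19 members fell and Atp5g1 rose at 108 h, with a median of -0.15, and 71 fell and Atp5g1 rose at 132 h, with a median of -0.66. The median over all genes in these fits was 0.004 at 108 h and 0.02 at 132 h. Their part in the other values was not tested.

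The CLA values of members with and without each motif are given here as a description. At 132 h, 12 of 17 members with the NRF1 letters fell, with a median of -0.38, and 37 of 49 without them, with a median of -0.41. Sdha, with 3 NRF1 matches, and Ndufv1, with none of the 5 motifs, had log2 fold changes of -0.95 and -0.94. Of 8 members with the YY1 letters 7 fell at 132 h, with a median of -0.50, against 42 of 58 and -0.39 without them. Exon length (Pearson correlation -0.12 over 78 members) and mean RPKM (-0.20 over 79) had weak relations with the log2 fold change at 132 h.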

How the data were processed

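Poly-A RNA of 40 mammary glands was sequenced with a stranded kit, and the labels call the 5 mice of a group biological replicates. The p-values thus set group differences against the spread between mice within groups, pooled over the groups of a fit. That spread also holds differences of title run and of skin and muscle signal. The authors deposited raw counts per gene and RPKM values for the same genes in an early table (60 h and 108 h) and a late table (84 h and 132 h) of 20 libraries each. The build was GRCm38, per the submitters' processing notes, while the sources used here do not give the aligner, the counter or the gene model. Unused sample columns numbered 0.

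Counts were tested with edgeR 4.0.16 in R 4.3.3: TMM scaling, genes kept by filterByExpr with a minimum count of 10 and a total of 15, and the robust quasi-likelihood F test with 1 fit for the 4 groups of a table, Benjamini-Hochberg adjusted over all genes at 0.05. Time differences and controls across hours used 1 fit of all 40 libraries. Standard errors were taken as |log2 fold change| over the root of the F value, and intervals are 95%. RPKM values were tested with limma 3.58.1 on log2(RPKM + 0.1), for genes over 0.1 RPKM in 5 libraries, a scale that understates the change of low genes. DESeq2 1.42.0 was an alternative. The edgeR fit of the early table was tried before use on simulated counts with known fold changes. Far fewer genes were changed there than were called under CLA. The other fits were not tried on simulated data.

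The members, lists and motifs were chosen with earlier results of these data known. Genes named with values were, per complex, those of highest RPKM and of smallest p under CLA, fixed core subunits and isoforms, and those called where few were. A few others (Ndufa2, Uqcrh, Cox7c, Ndufb4, Atp5l, Atp5s, Atp5sl, Uqcrb) were named after their values were seen. The alternatives were other scalings, filters and tools, fits of fewer or more groups, a term for runs of the title number, and libraries left out. Depth limits the precision of low members such as Atp5g1 and Cox4i2.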

Additional observations from a re-analysis of the deposited data

Results flagged for a closer look

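Within each group of 5, the gap between the highest or lowest library and its neighbour was set against the group's range, for 16 of the members named above, chosen after their values were seen, and for the mean log2 CPM of the 5 complexes, in all 8 groups. Of 168 groups examined 16 held a library that stood apart, where chance gives about 1 in 20, and the members and complexes are not independent of each other. No cause was tested.

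CLA replicate 4 at 108 h was the lowest of its group for complex I, at 6.07 log2 CPM on average, the other 4 libraries having 6.26 to 6.33, for complex III at 7.09 against 7.30 to 7.36, for complex V at 6.53 against 6.67 to 6.70 and for Cox6a1 at 281 CPM against 326 to 342 CPM. Estrogen replicate 1 at 60 h was the lowest of its group for complex II, at 8.19 log2 CPM against 8.55 to 8.66, for Ndufv1 at 258 CPM against 338 to 369 CPM, for Uqcrc1 at 443 CPM against 594 to 652 CPM and for Cox6a1 at 374 CPM against 467 to 496 CPM. Control replicate 1 at 108 h was the highest of its group for Sdhb, at 374 CPM against 300.3 to 314 CPM, and for Uqcrc1, at 599.963 CPM against 485 to 516 CPM. It is also among the control libraries of high skin and muscle signal.

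Other libraries stood apart for 1 member each. Ndufs1 was highest in CLA replicate 3 at 108 h, at 122 CPM against 92.9 to 100.1 CPM. Cox6a1 was lowest in control replicate 4 at 84 h, at 462 CPM against 511 to 525 CPM. Atp5a1 was highest in estrogen replicate 5 at 84 h, at 1921 CPM against 1394 to 1502 CPM. Atp5g1 was highest in CLA replicate 2 at 108 h, at 7.00 CPM against 5.89 to 6.16 CPM. Atp5g3 was highest in CLA replicate 5 at 108 h, at 255 CPM against 225 to 232 CPM. Ndufa4l2 was lowest in CLA replicate 3 at 132 h, at 5.06 CPM against 6.94 to 7.58 CPM.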

How the results depend on the processing

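Counts of called members at 132 h of CLA (61) stayed within 1.5 times under every alternative run, from 42 with title runs as a term to 73 without the libraries of high muscle signal, and 50 to 70 with 1 library left out at a time. At 108 h of CLA (45) they ran from 20 without the libraries of high skin signal, and 20 without those of high skin or muscle signal, to 59 with upper-quartile scaling, and 32 to 49 with 1 library left out. At 60 h of estrogen (1) the count was 2 with upper-quartile scaling, 4 with DESeq2 and 1 to 2 with 1 library left out. At 84 h of estrogen (0) limma called 1 on log2(RPKM + 0.1), 1 on log2(RPKM + 1) and 1 with no filter, and leaving out 1 library gave 0 to 1. The cause of these shifts was not tested. The shares of all genes called are not given for the alternatives, so whether a shift is particular to the members cannot be read from the counts, here and below.

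CLA at 108 h minus estrogen at 60 h (11) gave 26 with upper-quartile scaling, 6 with no filter, 7 by limma with no filter, 3 without high skin signal, 2 without high muscle signal and 3 without either. Leaving out 1 library gave 5 to 30: 30 without estrogen replicate 1, 5 without estrogen replicate 4 or CLA replicate 4, 6 without control replicate 1 or 5 at 60 h, control replicate 1 at 108 h or estrogen replicate 2 or 5, and 7 without control replicate 2 at 60 h, control replicate 3 at 108 h or CLA replicate 1 or 2. CLA at 132 h minus estrogen at 84 h (25) gave 15 with no filter, 16 by limma with either pseudocount, 12 by limma with no filter, 4 without high skin signal and 40 without high muscle signal. Leaving out 1 library gave 11 to 41: 41 without CLA replicate 1, 16 without control replicate 1 at 84 h or CLA replicate 4, 15 and 14 without control replicate 5 or 2 at 84 h, 14 without estrogen replicate 2, 13 and 12 without control replicate 5 or 3 at 132 h, and 11 without control replicate 4 at either hour, estrogen replicate 5 or CLA replicate 2 or 3. Controls across hours (2) gave 1 with upper-quartile scaling, 6 with DESeq2, 1 with no filter, 0 without high skin signal, 1 without high muscle signal and 0 without either. Leaving out 1 control library gave 0 to 4: 0 without replicate 2 or 5 at 108 h, 4 without replicate 4 at 132 h, and 1 without replicate 3, 4 or 5 at 60 h, replicate 1, 2, 3 or 5 at 84 h, replicate 3 or 4 at 108 h or replicate 3 at 132 h. The changes in effect between hours, 0 members each, were 0 to 0 with 1 library left out and 0 under the other alternatives.

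No named member changed direction past the threshold: of the named values 3067 kept their side of it, 81 no longer passed and 48 newly passed. On log2(RPKM + 0.1) the median of all genes at 132 h of CLA was 0.13, against -0.03 by counts. Leaving out the libraries of high muscle signal was chosen after the data were seen, as was leaving out those high in either signal and 1 control at a time across hours. No paired analysis was possible because the replicate numbers follow the order of the samples and pair no mice.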
